A study of Mus musculus with 176 samples.

Results

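The 10 genes described here, Isg15, Isg20, Ifit1, Ifit3, Irf7, Bst2, Ifi27l2a, Usp18, Rtp4 and Zbp1, are genes that type I interferons switch on in most nucleated cells. They were chosen by name from the 53546 gene names of the count table, and each of the 10 had at least 1 read in a cell that passed quality limits. The cells were CD4 T cells from lymph nodes of female mice of the inbred strain C57BL/6J, with no engineered allele. The mice received the apolipoprotein B peptide P6 intramuscularly in complete Freund's adjuvant at 7 weeks of age and again in incomplete adjuvant at 9 weeks, and draining nodes were taken at 11 weeks. All sorted cells were antigen-experienced by surface phenotype (TCRβ+, CD4+, CD44-high, CD62L-). P6+ cells bound a tetramer of the MHC class II molecule I-Ab loaded with P6 in both fluorochromes, and P6- cells did not bind it. No unimmunized or adjuvant-only group was analysed here, so both groups share the adjuvants.

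Full-length cDNA was made from each cell by Smart-Seq2, a plate method without molecular identifiers, and reads were counted per gene. The limits set were 500000 reads, 2000 genes and 10% mitochondrial reads. All 32 P6+ cells and 89.6% of the P6- cells passed them, and 15 P6- cells failed. The study kept fewer P6- cells, with a further limit on the mapping rate that was not used here. The highest mitochondrial share was 2.82% in P6+ and 9.46% in passing P6- cells. The median depth was 1731608 reads for P6+ cells (956280 to 3332191) and 1500457 reads for passing P6- cells (522188 to 3401372). The P6+ cells came from 1 mouse, and the labels name no animal for the P6- cells. Each group was therefore treated as 1 sample, and no test between groups was made. Levels are reads summed over the cells of a group per 1000000 reads of the group (cpm), with exact Poisson intervals, and shares of cells carry exact binomial intervals, both at 95%. These intervals cover counting error only. The Poisson intervals count reads after PCR amplification without molecular identifiers, so they do not cover the sampling of molecules. All 32 P6+ cells lay on a single plate of the 8, with 11 of the passing P6- cells, so that tetramer binding and plate cannot be told apart except against those 11 cells. The P6+ cells also held more genes, a median of 4396 against 3432 in P6- cells and 3674 in the 11 P6- cells of the same plate. Thinning every cell to 500000 reads left 2754.5, 2226 and 2616 genes.

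The sorted cells carried the RNA of the labelled cell type. At least 3 of 7 CD4 T cell markers (Cd3e, Cd3d, Cd3g, Cd4, Trac, Trbc1, Trbc2) had 10 or more reads in all 32 P6+ cells and in 81.4% of P6- cells, and their summed level per cell was 2031 to 8432 cpm in P6+ and 8.18 to 13746 cpm in P6- cells. No cell reached 3 markers of CD8 T and NK cells, B and plasma cells, myeloid cells or plasmacytoid dendritic cells. Of these lists, the markers Ncr1, Cd79a, Jchain, Itgam, Fcer1g, Tyrobp, Siglech, Cox6a2 and Klk1 had no read in either group. Others were present in few cells: Cd79b was at 46.1 cpm in P6+ and 0.00981 cpm in P6- cells (2 and 0 cells at 10 reads), Cd8b1 at 0 and 12.1 cpm (0 and 2 cells) and Sdc1 at 0.0169 and 19.2 cpm (0 and 2 cells). Plasmacytoid dendritic cells make large amounts of type I interferon and carry much Bst2. Of their list, Siglech, Cox6a2 and Klk1 were thus at 0. Irf8, which other cells also express, had 10 or more reads in 5 P6+ cells (15.6%) and 1 P6- cell (0.775%). Spib had them in 1 P6+ cell and Ccr9 in 1 P6- cell. The summed level of the plasmacytoid dendritic cell list was 0 to 715 cpm per P6+ cell and 0 to 2711 cpm per P6- cell, with a median of 0 in both groups. The B and plasma cell list reached 7238 cpm in a P6+ and 7611 cpm in a P6- cell, with medians of 4.33 and 0.928 cpm, and most of its reads were of Ighm. Ighm was at 999 cpm in P6+ and 548 cpm in P6- cells, with 10 reads in 43.8% and 23.3% of cells. The myeloid list reached 1431 and 9983 cpm, with medians of 1.55 and 0.48 cpm, and Cst3 was its sole gene at 10 reads in any cell. Cst3 was at 227 cpm in P6+ and 154 cpm in P6- cells, with 10 reads in 46.9% and 18.6% of cells. Ighm, Cd79b, Cst3 and Irf8 were thus higher in the P6+ group. Their part in the levels below was not tested.

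Type I interferons act through the receptor chains IFNAR1 and IFNAR2, which carry the kinases JAK1 and TYK2. The signal ends in a transcription complex that contains IRF9 and binds interferon-stimulated response elements, GAAA repeats in the promoters of the response genes. In T cells the response accompanies infection and adjuvant-driven inflammation, and it is known to vary from cell to cell. The 10 genes cover several branches of it. Isg15 is a ubiquitin-like modifier, and Usp18 is the protease that removes it and that also dampens the receptor. Ifit1 binds RNA with foreign ends, Ifit3 is of the same gene family, Isg20 is an exonuclease, and Bst2 (tetherin) holds virus particles at the cell surface. Zbp1 senses Z-form nucleic acid, and Irf7 is a transcription factor that amplifies interferon production. Rtp4 and Ifi27l2a are interferon-induced genes, the former of a receptor-transporting protein and the latter of a small hydrophobic protein.

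Promoter sequence was available from RefSeq for 6 of the 10 genes (8 promoters, each from 250 bases before to 50 bases after the start, build GRCm38.p6). The letters GAAANNGAAA, or TTTCNNTTTC on the other strand, occurred in a promoter of 4 of these 6 genes, Isg15, Bst2, Ifit1 and Ifit3. They were not found in the window of Irf7 or in the 3 windows of Isg20. The letters occurred in 4 of the 8 promoters of the set and in 3.44% of all 32851 promoters of this length, or in 3.99% of 27025 genes, and among 44 other interferon response genes with a promoter they occurred in 18 (40.9%). The stretches that hold the matches are shown because they carry the letters of the element through which type I interferon acts on its response genes. Capitals mark the matched letters, with overlapping matches merged, and each stretch reads along the strand of the gene.
Isg15 (chr4:156200855-156200916, minus strand): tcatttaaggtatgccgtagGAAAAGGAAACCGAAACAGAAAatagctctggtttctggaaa
Bst2 (chr8:71537567-71537622, minus strand): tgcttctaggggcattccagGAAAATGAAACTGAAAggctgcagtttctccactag
Ifit3 (chr19:34583353-34583436, plus strand): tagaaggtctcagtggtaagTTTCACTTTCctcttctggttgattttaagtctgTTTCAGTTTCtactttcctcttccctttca
Ifit1 (chr19:34640765-34640833, plus strand): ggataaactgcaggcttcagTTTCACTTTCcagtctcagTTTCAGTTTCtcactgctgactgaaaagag
The match nearest to the start ended 57 bases before it in Isg15 and 76 in Ifit1, and the farthest base of a match lay 130 bases before it in Bst2 and 156 in Ifit3. Isg15 held 3 overlapping matches, Bst2 held 2 overlapping ones, and Ifit1 and Ifit3 each held 2 separate ones. A match describes the letters in this window and shows neither binding nor activity in these cells.

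Ifi27l2a was the gene of the set that nearly every P6+ cell carried. It lies on chromosome 12 (103442167 to 103443680, minus strand, GRCm38). Its level over P6+ cells was 3.18 cpm in the lowest cell, 1519 cpm in the median cell and 7850 cpm in the highest, and over P6- cells 0, 441 and 5494 cpm. The ranges overlapped over most of their length, while the median P6+ cell stood above the median P6- cell. At least 10 reads were present in 30 of 32 P6+ cells (93.8%, 79.2 to 99.2%) and in 78.3% of P6- cells (70.2 to 85.1%). Pooled over cells, the level was 2444 cpm (2431 to 2456) in P6+ and 828 cpm (824 to 832) in P6- cells, a log2 ratio of 1.56 with a pseudocount of 1 cpm. Among the P6- cells of the 8 plates the level ranged from 565 to 1218 cpm, below that of the P6+ cells on every plate. Ifi27l2a held 69.7% of the reads of the 10 genes in P6+ cells and 53.7% in P6- cells. Per kilobase of exon it was at 5278 cpm in P6+ cells, and the next gene, Bst2, at 218 cpm.

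Bst2 and Zbp1 were present in a larger share of P6+ than of P6- cells. Bst2 (chromosome 8, 71534255 to 71537456, minus strand) reached 10 reads in 14 P6+ cells (43.8%, 26.4 to 62.3%) and in 15 P6- cells (11.6%, 6.66 to 18.5%). Its level over cells was 0 cpm in the lowest, 1.23 in the median and 1217 in the highest P6+ cell, and 0, 0 and 979 cpm in P6- cells. High cells occurred in both groups and reached similar levels, and more of the P6+ than of all P6- cells were high. On the same plate 2 of 11 P6- cells had 10 reads (18.2%, 2.28 to 51.8%), an interval that includes the P6+ share. The pooled level was 197 cpm (193 to 200) against 43.8 cpm (42.9 to 44.7), a log2 ratio of 2.14. With the 15 failing P6- cells included the ratio turned to -0.11. Against the 11 P6- cells of the same plate, at 102.4 cpm, the ratio was 0.94, and 1 of those 11 cells held 90.8% of their Bst2 reads.

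Zbp1 (chromosome 2, 173206612 to 173218923, minus strand) reached 10 reads in 11 P6+ cells (34.4%, 18.6 to 53.2%) and in 9 P6- cells (6.98%, 3.24 to 12.8%). Over P6+ cells the level was 0, 0.405 and 936 cpm in the lowest, median and highest cell, and over P6- cells 0, 0 and 2283 cpm, so the highest cell was P6-. P6+ cell 21 held 37.9% of the P6+ reads and P6- cell 20 held 39.1% of the P6- reads. The pooled level was 131.2 cpm (128.3 to 134.1) in P6+ and 36.7 cpm (35.9 to 37.6) in P6- cells, a log2 ratio of 1.81. Without each group's highest cell the levels were 86.04 and 22.5 cpm and the ratio was 1.89. None of the 11 P6- cells of the same plate had 10 reads (up to 28.5% by the binomial interval), and 5 reads over all of them gave 0.324 cpm (0.105 to 0.756). On 7 of the 8 plates the P6- level was below that of the P6+ cells.

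Isg20 (chromosome 7, 78913424 to 78920396, plus strand) was read 10 or more times in 8 P6+ cells (25%, 11.5 to 43.4%) and in 10 P6- cells (7.75%, 3.78 to 13.8%). The lowest, median and highest P6+ cell held 0, 0.433 and 2062 cpm, and the same P6- cells 0, 0 and 1692 cpm. High cells thus reached like levels in both groups. Pooled, Isg20 was at 244 cpm (240.2 to 248) in P6+ and 78.6 cpm (77.4 to 79.8) in P6- cells, a log2 ratio of 1.62, and above the level of the P6- cells of each of the 8 plates, which ranged from 0.361 to 159 cpm. The level in the P6- cells of the same plate was 8.22 cpm (6.86 to 9.78), of which 81.9% came from 1 cell, and 2 of those 11 cells had 10 reads (18.2%, 2.28 to 51.8%).

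Irf7 differed less. It lies on chromosome 7 (141262706 to 141266481, minus strand) and shares exon sequence with Phrf1 on the other strand, which the unstranded library cannot separate there. Phrf1 had 117.6 cpm in P6+ and 136.8 cpm in P6- cells, and 7 cells had 10 reads of both genes. The lowest, median and highest P6+ cell held 0, 0.779 and 2118 cpm of Irf7, and the P6- cells 0, 0.438 and 4989 cpm. Irf7 reached 10 reads in 10 P6+ cells (31.2%, 16.1 to 50.01%) and in 23 P6- cells (17.8%, 11.7 to 25.5%). The pooled levels were 342 cpm (337 to 347) and 300.0 cpm (298 to 302), a log2 ratio of 0.19. P6- cells of single plates ranged from 99.8 to 948 cpm, on both sides of the P6+ level. The median Irf7 level of the cells with 10 or more reads was 1128 cpm in P6+ and 1163 cpm in P6- cells.

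Rtp4 (chromosome 16, 23520291 to 23614222, plus strand) was lower in P6+ cells by pooled level and more frequent by share of cells. Its lowest, median and highest values were 0, 0 and 874 cpm in P6+ and 0, 0 and 8869 cpm in P6- cells. A single P6- cell held 33.5% of the P6- reads, and P6+ cell 19 held 37.6% of the P6+ reads. At least 10 reads were found in 6 P6+ cells (18.8%, 7.21 to 36.4%) and in 14 P6- cells (10.9%, 6.06 to 17.5%). The pooled level was 66.9 cpm (64.8 to 69.03) in P6+ against 130.8 cpm (129.3 to 132.4) in P6- cells, a log2 ratio of -0.96. On the plate of the P6+ cells the order turned, as the 11 P6- cells held no Rtp4 read. A count of 0 allows 3 counts, or 0.194 cpm, over these cells, which puts the P6+ level at least 344-fold higher there. Without P6+ cell 19 the P6+ level was 42.96 cpm and the bound 221-fold. That bound covers reads only, since 0 of 11 cells (up to 28.5% by the binomial interval) overlaps the P6+ share of cells. The annotated span of Rtp4 overlaps Gm45338 and Masp1, which had at most 0.00981 cpm in either group.

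Isg15, Ifit1 and Ifit3 were carried by few cells. Isg15 (chromosome 4, 156199424 to 156200818, minus strand) reached 10 reads in 2 P6+ cells (6.25%, 0.766 to 20.8%), P6+ cell 23 with 182 cpm and P6+ cell 12 with 18.5 cpm. In P6- cells there were 9 (6.98%, 3.24 to 12.8%), from 61.1 to 320 cpm with a median of 193 cpm. Isg15 was pooled at 5.63 cpm (5.04 to 6.27) in P6+ and 12.2 cpm (11.7 to 12.7) in P6- cells, a log2 ratio of -0.99. The shares of cells were nearly equal, and in P6+ cells P6+ cell 23 held 90.7% of the reads. On the same plate 2 of 11 P6- cells had 10 reads (18.2%, 2.28 to 51.8%), an interval that includes the P6+ share. The level there was 39.1 cpm and the log2 ratio -2.60. Without each group's highest cell the levels were 0.537 and 9.80 cpm and the ratio was -2.81.

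Ifit1 (chromosome 19, 34640871 to 34650009, plus strand) reached 10 reads in 3 cells only, P6- cell 11 with 1249 cpm, P6+ cell 23 with 1208 cpm and P6- cell 76 with 20.5 cpm. P6+ cell 23 held 99.8% of the P6+ reads and P6- cell 11 held 98.6% of the P6- reads. The pooled levels of 33.99 cpm (32.5 to 35.5) in P6+ and 11.8 cpm (11.4 to 12.3) in P6- cells, a log2 ratio of 1.45, therefore compare 1 cell with 1 cell. Without each group's highest cell, the levels were 0.0693 and 0.168 cpm and the ratio was -0.13. Ifit3 (chromosome 19, 34583531 to 34588731, plus strand) was found in 2 P6+ cells, P6+ cell 23 with 1163 cpm and P6+ cell 19 with 233 cpm, and in 7 P6- cells from 120.4 to 2123 cpm. Its pooled level was 39.4 cpm (37.8 to 40.99) in P6+ and 69.6 cpm (68.5 to 70.8) in P6- cells, a log2 ratio of -0.81, and 82.9% of the P6+ reads came from P6+ cell 23, while P6- cell 120 held 45.2% of the P6- reads. Without these cells the levels of Ifit3 were 6.92 and 38.7 cpm and the ratio was -2.33. Both genes have near copies. Ifit3b was at 0.320 cpm in P6+ and 36.3 cpm in P6- cells, and 5 of the cells with 10 Ifit3 reads also had 10 of Ifit3b. The split of reads between these copies is therefore uncertain. Ifit1bl1, the copy of Ifit1, was at 0 cpm in P6+ and 35.7 cpm in P6- cells, and 0 cells had 10 reads of both.

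Usp18 (chromosome 6, 121245906 to 121270917, plus strand) had a single read in the 32 P6+ cells. This gave 0.0169 cpm (0.000427 to 0.0939), and no P6+ cell reached 10 reads (up to 10.9% by the binomial interval). In P6- cells 5 did (3.88%, 1.27 to 8.81%): P6- cell 81 with 2189 cpm, P6- cell 9 with 1742 cpm, P6- cell 29 with 498 cpm, P6- cell 23 with 106.4 cpm and P6- cell 40 with 23.1 cpm. The pooled P6- level was 29.99 cpm (29.2 to 30.7), and the ratio of P6- to P6+ was 1779.5-fold, with a counting interval of 319 to 70298. Its denominator is 1 read. On the scale used for the other genes, with a pseudocount of 1 cpm, the log2 ratio of P6+ to P6- was -4.93, and it was -8.01 with a pseudocount of 0.1 and -1.997 with 10. P6- cell 9 held 49.1% of the P6- reads, and without it the P6- level was 15.4 cpm. With the P6+ cell of the single read left out as well, the log2 ratio with a pseudocount of 1 was -4.04. The counting interval covers reads and not cells, and the binomial intervals of the shares of cells overlapped. The exon sequence that Usp18 shares with Gm44148 on the other strand cannot be separated, and no cell had 10 reads of both.

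**Figure D1:**
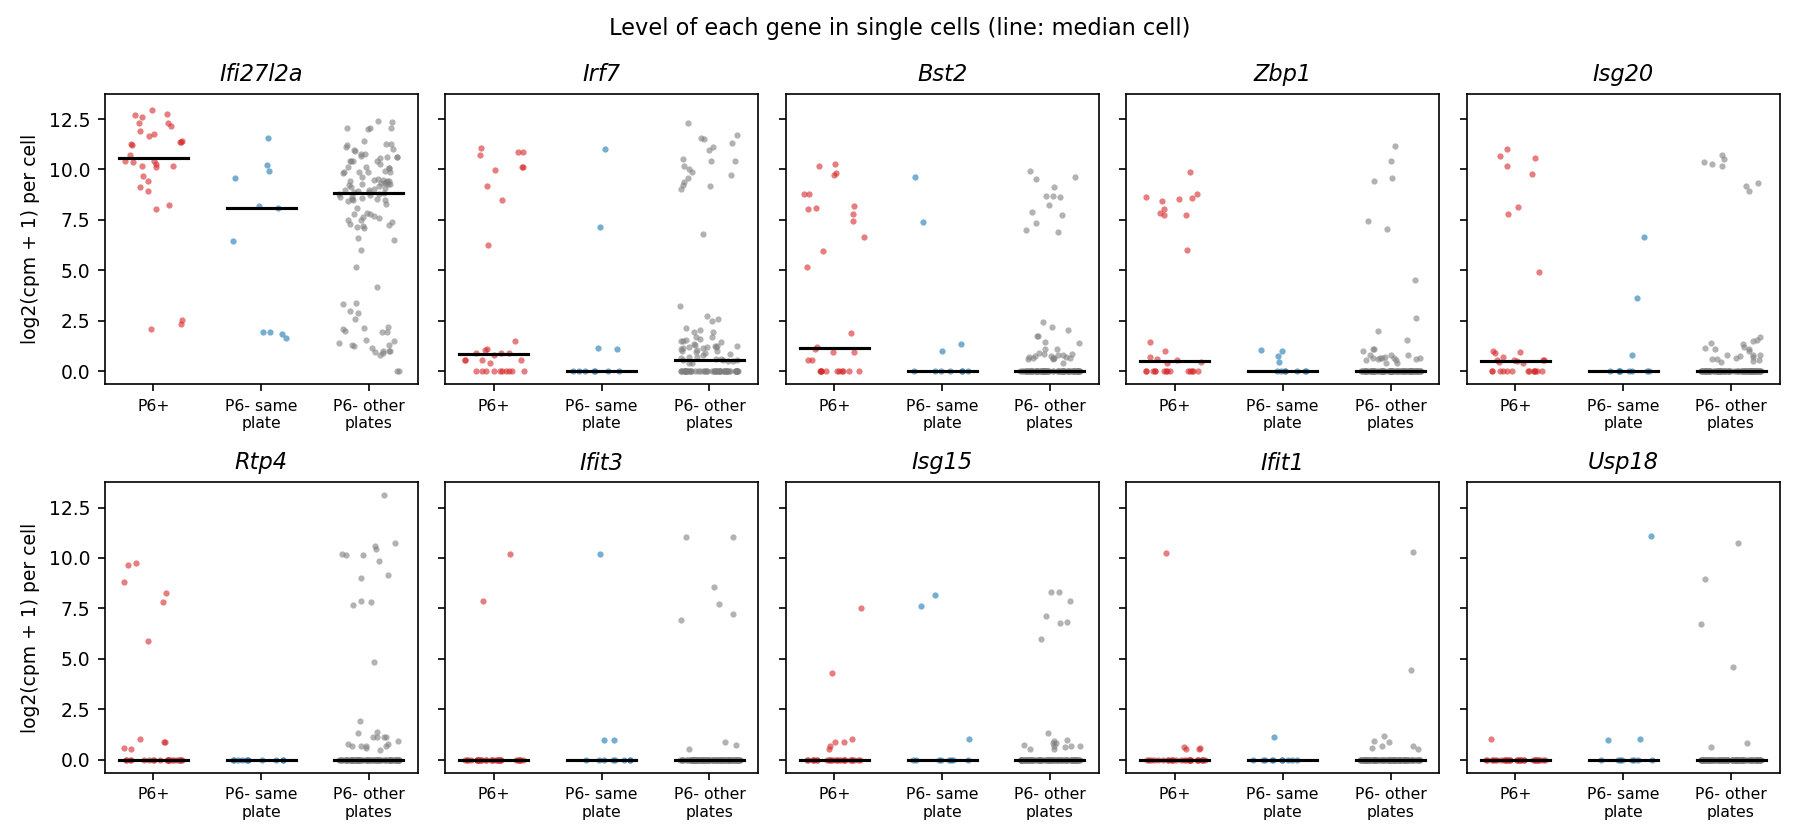
Level of each of the 10 genes in single cells, as log2(cpm + 1) on the vertical axis, for 32 P6+ cells, the 11 P6- cells of the same plate and the P6- cells of other plates. Each point is a cell and each line the median cell. For genes other than Ifi27l2a most cells lie near 0 and a separate group of cells lies mostly above 4.

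The values of a gene in a cell were mostly either near 0 or high, as the plot of single cells shows. Of the 1610 values (10 genes in 161 cells), 1087 were 0, 244 were 1 to 9 reads, 23 were 10 to 99 reads and 256 were 100 reads or more. A minimum of 10 reads therefore cut through a thinly filled range.

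By pooled level, 5 of the 10 genes were at least 2-fold higher in P6+ cells (Isg20, Ifit1, Bst2, Ifi27l2a, Zbp1) and 1 was at least 2-fold lower (Usp18). With single cells pooled in this way such ratios were common: among 8728 genes at 10 cpm or more in the higher group, 24.3% were at least 2-fold higher and 29.9% at least 2-fold lower. The median log2 ratio of the 10 genes was 0.82, with a median of -0.052 over all those genes. The medians of the lower and of the upper counting limits of the 10 genes were 0.75 and 0.89, which are not an interval for the median. The median depended on few cells. Without each gene's highest cell in each group it was 0.13, with 4 genes 2-fold higher and 4 lower (among the lower Isg15, then under 10 cpm in both groups), and without P6+ cell 23 and the P6- cell highest in these genes it was -0.47. Isg20, Bst2, Ifi27l2a and Zbp1 kept a log2 ratio of 1.52 to 2.13 without their highest cells, though that of Bst2 turned with the failing cells, as given above.

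By share of cells, 6 of the genes could be compared, those detected at 10 reads in 10% or more of either group. Of these, Isg20, Bst2 and Zbp1 had a share at least 2-fold higher in P6+ cells, and 0 had one 2-fold lower. On the same plate 2 of 11 P6- cells (18.2%) had 10 reads of Isg20, against which the P6+ share of 25% was not 2-fold higher. Of all 5176 genes that could be compared in this way, 35.3% had a 2-fold higher share and 3.83% a 2-fold lower share in P6+ cells. The P6+ cells held more genes each, as given above, and the part of this in the shares of the 10 genes was not tested.

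**Figure D2:**
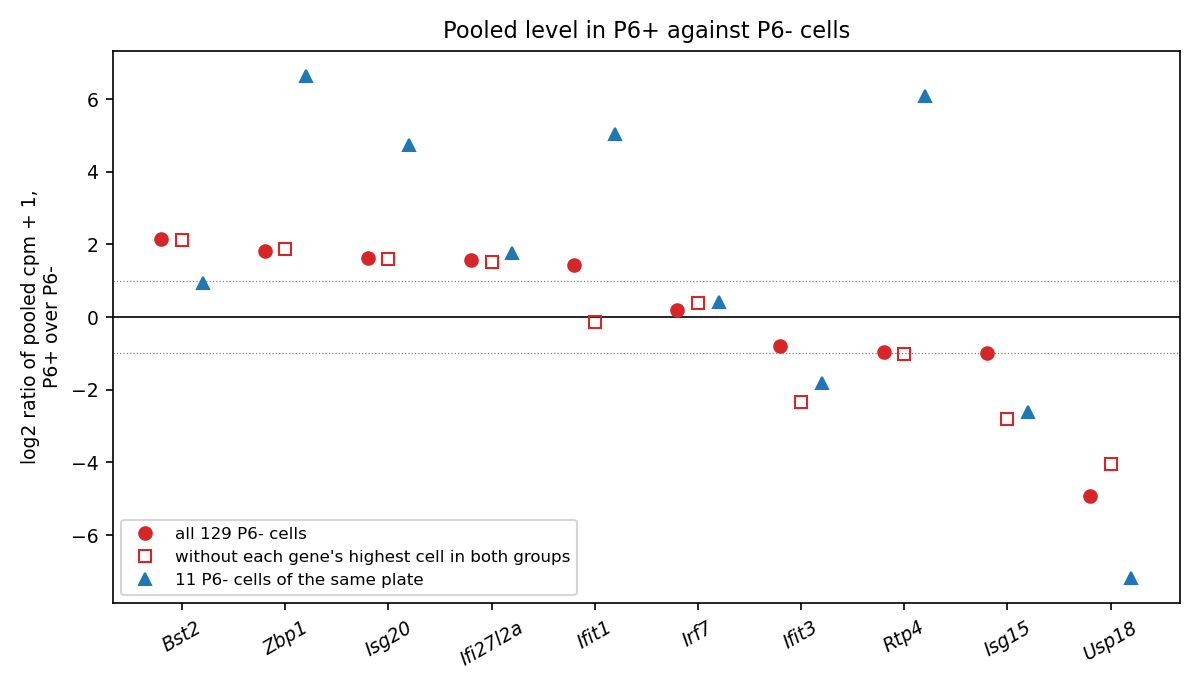
Log2 ratio of the pooled cpm, with a pseudocount of 1 cpm, of P6+ over P6- cells for each gene, against all P6- cells, without each gene's highest cell, and against the 11 P6- cells of the same plate. Dotted lines mark 2-fold. Isg20, Bst2, Ifi27l2a, Zbp1 and Irf7 (0.19 to 0.42) stay above 0 in the 3 comparisons (Bst2 turns to -0.11 only with the failing P6- cells, not drawn). Rtp4, Ifit1 and Zbp1 had 0, 1 and 5 reads in the 11 cells, so that their triangles are set by the pseudocount.

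Against the 11 P6- cells of the same plate, 5 genes were at least 2-fold higher (Isg20, Ifit1, Ifi27l2a, Rtp4, Zbp1) and 3 at least 2-fold lower (Isg15, Ifit3, Usp18). Among 7761 genes, 50.3% were 2-fold higher and 24% 2-fold lower in this comparison, and their median log2 ratio was 1.04. The median of the 10 genes was 1.35, also with Rtp4 at its bound. Bst2 at 0.94 and Irf7 at 0.42 lay below the median of all genes, and Ifi27l2a at 1.76 lay above it. For Isg15, Ifit3, Irf7, Bst2 and Usp18, 58.8 to 99.9% of the reads of the 11 cells came from 1 cell. Without each gene's highest cell, 7 genes were 2-fold higher and 1 was lower, with a median of 3.31. This step took 1 of 11 P6- but 1 of 32 P6+ cells, which lowers the P6- level more for genes carried by few cells. It was not computed over all genes, so nothing is read from these counts. Ifit3, then under 10 cpm in both groups, turned from -1.82 to 2.79, and Usp18 went from -7.18 to -0.19.

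More of the 10 genes were detected per P6+ than per P6- cell, as were more genes of any kind. At least 3 of the 10 genes had 10 or more reads in 16 of 32 P6+ cells (50%, 31.9 to 68.1%) and in 21 P6- cells (16.3%, 10.4 to 23.8%). The median was 2.5 genes per P6+ and 1 gene per P6- cell. Thinned to 500000 reads per cell, the shares were the same. These shares follow from the shares of the single genes as well as from their joint presence, and 35.3% of all genes compared had a 2-fold higher share in P6+ cells, so they are not read as particular to the 10 genes. On the same plate 3 of 11 P6- cells held at least 3 of the genes (27.3%, 6.02 to 60.97%), an interval that includes the P6+ share. Across plates the share of P6- cells with at least 3 ranged from 6.25 to 27.3%. At 5 or more genes the shares were 12.5% (3.51 to 28.99%) of P6+ and 3.88% (1.27 to 8.81%) of P6- cells, with overlapping intervals. Within P6+ cells, the 16 with at least 3 of the genes had a median of 1687987 reads and 4551.5 genes, and the other 16 had 1959414 reads and 4377.5 genes. Within P6- cells, the 21 with at least 3 had a median of 1571118 reads and 3638 genes, and the rest had 1485083 reads and 3337 genes. The gene number was thus higher in the cells with more of the 10 genes in both groups, and its part was not tested.

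**Figure D3:**
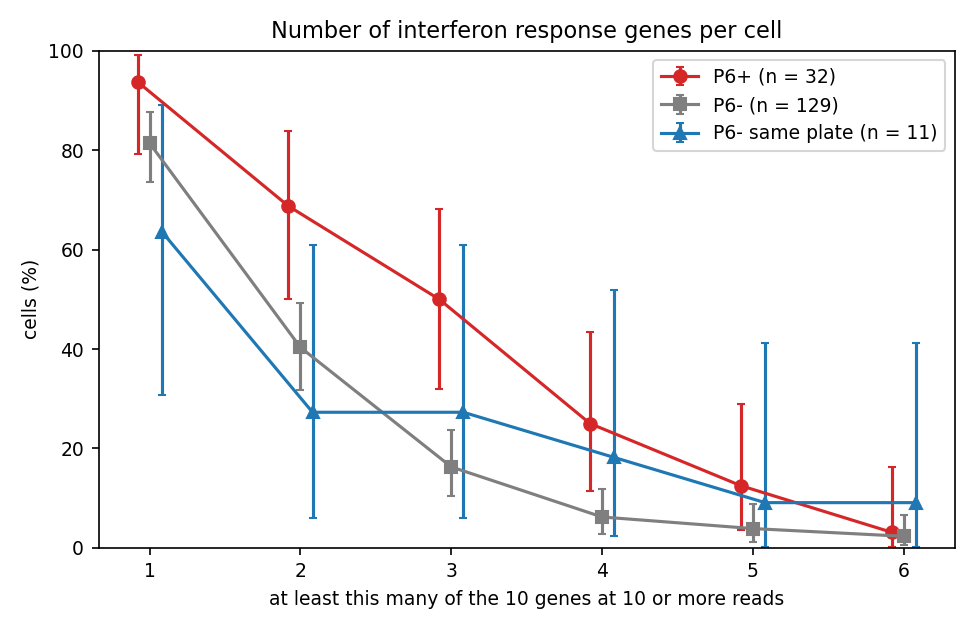
Percent of cells with at least the given number of the 10 genes at 10 or more reads, for 32 P6+ cells, all P6- cells and the 11 P6- cells on the same plate, with exact 95% binomial intervals. The P6+ and P6- intervals are apart at 2 genes (68.8 against 40.3%) and at 3 genes (50 against 16.3%), and those of the 11 cells overlap both.

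**Figure D4:**
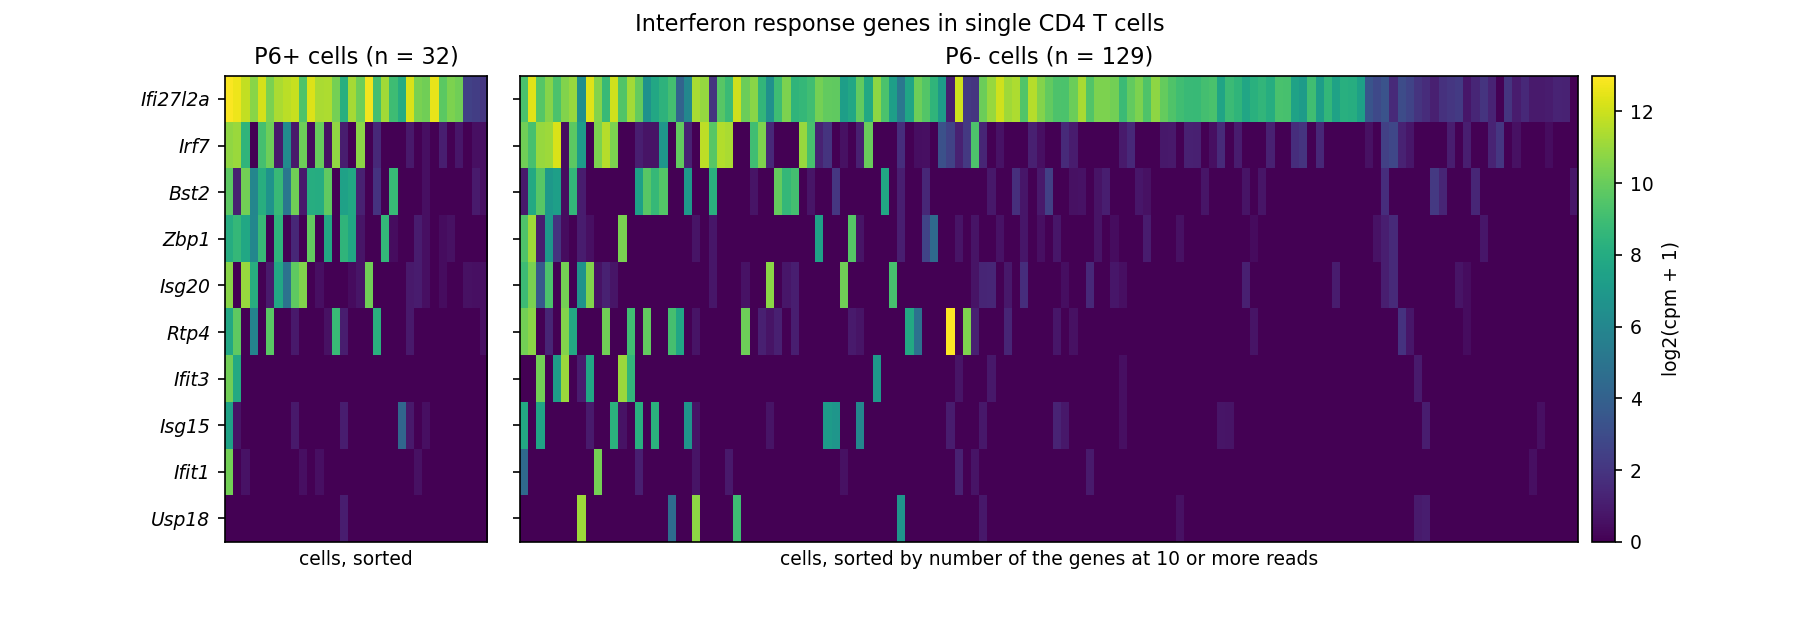
Level of each gene (rows) in each cell (columns) as log2(cpm + 1), with cells sorted from left to right by the number of the 10 genes at 10 or more reads, for P6+ and P6- cells. Ifi27l2a fills most of its row, and Usp18 has a single faint cell among P6+ cells. Irf7, Bst2, Zbp1, Isg20 and Rtp4 gather at the left, which follows from sorting by the number of these same genes.

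The broadest response was in P6+ cell 23, with 9 of the 10 genes, all but Usp18. It held 7850 cpm of Ifi27l2a, 1838 cpm of Irf7, 1624 cpm of Isg20, 1208 cpm of Ifit1, 1163 cpm of Ifit3, 855 cpm of Bst2, 266 cpm of Zbp1, 221 cpm of Rtp4 and 182 cpm of Isg15. The same cell carried 1065 reads of Foxp3, the transcription factor of regulatory T cells, and 5 of the 7 CD4 T cell markers. P6- cell 76 followed with 7 of the genes, among them Rtp4 at 1191 cpm and Irf7 at 1163 cpm. P6- cell 20 and P6- cell 84 held 6 genes each and shared Isg20, Irf7, Bst2 and Ifi27l2a. Beside these, P6- cell 20 had 2283 cpm of Zbp1 and 1728 cpm of Rtp4, and P6- cell 84 had 1190 cpm of Ifit3 and 193 cpm of Isg15. A further 5 cells, 3 of them P6+, held 5 genes. Markers of other cell types in these 9 cells came to at most 1 gene per list with 10 reads, but the B and plasma cell list reached 4571 cpm in P6+ cell 31, 4253 cpm in P6- cell 20 and 1976 cpm in P6+ cell 32, where the CD4 T cell list was at 3051, 4425 and 2781 cpm. P6+ cell 32 had 1 marker each of the B and plasma cell, myeloid and plasmacytoid dendritic cell lists.

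For the cells with each gene, the number of genes of the set they held was counted. All 3 cells with 10 reads of Ifit1, 8 of the 9 with Ifit3, 14 of the 18 with Isg20, 23 of the 29 with Bst2, 15 of the 20 with Zbp1, 14 of the 20 with Rtp4, 21 of the 33 with Irf7 and 7 of the 11 with Isg15 had at least 3 of the genes. Of the 5 Usp18 cells only 2 did, and the other 3 held Ifi27l2a alone beside it. Ifi27l2a was the sole gene of the set in 58 cells. Over the 161 cells, which share plates, Pearson correlations of log2(cpm + 1) between the 45 pairs of genes ran from -0.07 (Bst2 with Usp18) to 0.39 (Bst2 with Zbp1), with a median of 0.18 and 38 above 0. Within P6+ cells the median was 0.23 and the highest pair was Isg15 with Ifit1 (0.84), both carried mainly by P6+ cell 23, with Bst2 and Zbp1 at 0.58. Within P6- cells the median was 0.11, the highest pair was Isg20 with Zbp1 (0.35), and Bst2 with Zbp1 was at 0.13. In counts as sparse as these, such values describe the cells and are weak.

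The genes most like the set were sought among 3781 genes with 10 or more reads in at least 10% of cells, by the Pearson correlation of log2(cpm + 1) with the mean of the 10 genes over the 161 cells. The 10 at the top were Ly6a (0.43), Phf11b (0.40), Anxa2 (0.39), Psmb8 (0.39), Ube2l6 (0.37), Sirt7 (0.37), Bmp2k (0.37), Plp2 (0.36), Ly6e (0.35) and Arpc4 (0.35). The groups were pooled for this order, and all 10 had a higher pooled level in P6+ cells, so the order also holds the difference between groups. Within P6+ cells the 10 correlations ran from 0.41 (Sirt7) to 0.72 (Phf11b), and within P6- cells from 0.13 (Ube2l6) to 0.28 (Ly6a). Of these, Ly6a, Phf11b, Psmb8, Ube2l6 and Ly6e, 5 of the 10, were on the lists of interferon-related genes described next, as were 1.03% of the 3775 genes compared besides the 10. Ly6a, which encodes the surface antigen Sca-1, was at 1101 cpm in P6+ and 312 cpm in P6- cells.

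Genes of the pathway around the set had ratios on both sides of 0 against all P6- cells. The 17 genes of type I interferons themselves (Ifna genes, Ifnb1 and relatives) had no read in any passing cell. The 7 receptor and signalling genes were all at 10 cpm or more, 0 were 2-fold higher and 1 was 2-fold lower in P6+ cells, with a median log2 ratio of -0.075, beside 24.3% higher and 29.9% lower over all genes. Against the 11 P6- cells of the same plate, 1 was 2-fold higher (Irf9, 1.56) and 3 were lower (Ifnar1, Ifnar2 and Tyk2, -1.16 to -2.35), with a median of -0.73, where 50.3% of all genes were higher and 24% lower and the median was 1.04. Ifnar1, a receptor chain, was the lower gene, at 295 cpm in P6+ and 842 cpm in P6- cells. The kinase Jak1 was at 580.4 and 656 cpm, and Irf9, the DNA-binding part of the transcription complex, at 298 and 314 cpm. Ifnar2 was at 62.6 and 120.2 cpm.

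Of 13 nucleic acid sensors and their adaptors, 11 were at 10 cpm or more, with 4 at least 2-fold higher and 4 at least 2-fold lower in P6+ cells and a median of 0.57, beside 24.3% and 29.9% over all genes. Tbk1, a kinase downstream of the sensors, was at 191 and 41.7 cpm, and Myd88, the adaptor of Toll-like receptors, at 210 and 65.01 cpm. Sting1, the adaptor of the DNA sensor, was at 198 and 117.8 cpm. The transcription factor Irf3 was at 62.1 and 139.9 cpm, and Adar, an RNA-editing enzyme, at 85.8 and 57.3 cpm. Tlr7, a receptor for RNA, was at 0 cpm in P6+ and 0.343 cpm in P6- cells, and Tlr9, a receptor for DNA, at 0 and 0.0049 cpm. Single cells made up 26.9 to 39.2% of the P6+ reads of Tbk1, Myd88, Sting1, Irf3 and Adar. Against the 11 P6- cells of the same plate, 9 of the list were at 10 cpm or more, 7 of them 2-fold higher and 1 lower, with a median of 4.67, where 50.3% of all genes were higher and 24% lower with a median of 1.04, and several sensors had few or no reads in the 11 cells.

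The 4 enzymes that attach ISG15 to proteins had ratios of both signs. Ube2l6, the conjugating enzyme, was at 365 cpm in P6+ and 47.3 cpm in P6- cells, with 10 reads in 11 of 32 (34.4%) and 6 P6- cells (4.65%). Uba7, the activating enzyme, was at 241 and 167 cpm, and Herc6, a ligase, at 26.4 and 10.1 cpm. Trim25, a ligase, was at 8.44 and 64.7 cpm. A single cell held 77.3% of the P6+ reads of Herc6 and 99.6% of those of Trim25. Of the 4, 2 were thus 2-fold higher and 1 was 2-fold lower (24.3% and 29.9% over all genes), and on the same plate 1 was higher and 1 lower with a median of 0.94 (50.3% and 24% over all genes), while Isg15 itself had the log2 ratio of -0.99 given above.

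A list of 53 other interferon response genes gave the wider view. Of these, 42 were at 10 cpm or more, 8 at least 2-fold higher (19.05%, beside 24.3% of all genes) and 12 at least 2-fold lower (28.6%, beside 29.9%) in P6+ cells. Their median log2 ratio was -0.074. The 5 most abundant were Shisa5 (2737 cpm in P6+ and 2917 in P6- cells), Ly6e (2788 and 1454), Ms4a4b (536 and 929), Samhd1 (915 and 748) and Ly6a (1101 and 312), of which Ly6a passed 2-fold. Shisa5 and Ly6e were found in 32 and 31 of the 32 P6+ cells. Against the 11 P6- cells of the same plate, 35 of the list were at 10 cpm or more, 16 of them 2-fold higher (45.7%) and 11 lower (31.4%), with a median of 0.014, where 50.3% of all genes were higher and 24% lower and the median was 1.04.

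The genes that interferon-gamma also induces had ratios of both signs against all P6- cells. Of 17, 16 were at 10 cpm or more, with 3 at least 2-fold higher, 3 at least 2-fold lower (18.8% each way, beside 24.3% and 29.9% of all genes) and a median log2 ratio of 0.50. Tap1, the peptide transporter of antigen presentation, was at 881 and 625 cpm, and the GTPase Igtp at 883 and 610 cpm. Gbp4 was at 306 and 434 cpm, Ifi47 at 110 and 314 cpm, and the immunoproteasome subunit Psmb9 at 255 and 268 cpm. Against the 11 P6- cells of the same plate, 15 of the list were at 10 cpm or more, 9 of them 2-fold higher (60%) and 1 lower, with a median of 1.26, where 50.3% of all genes were higher and 24% lower and the median was 1.04.

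**Figure D5:**
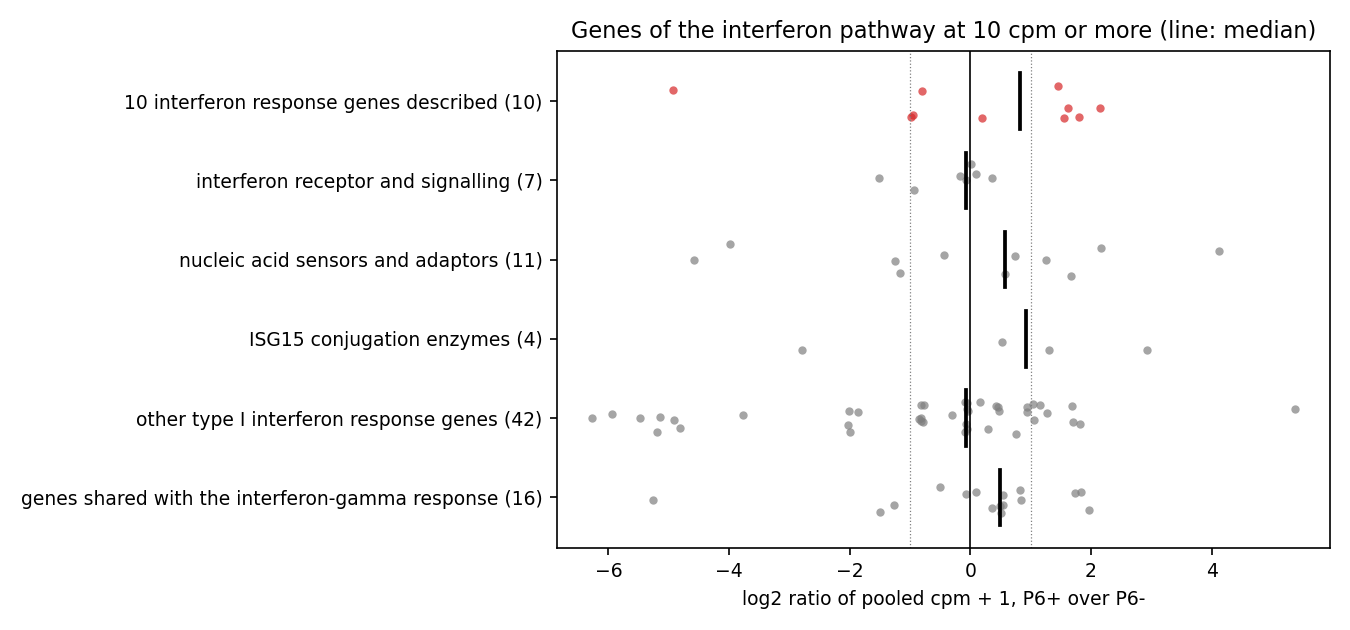
Log2 ratio of the pooled cpm + 1 in P6+ over P6- cells for the 10 genes and for 5 lists of related genes, 1 point per gene at 10 cpm or more in the higher group, with the number of genes in parentheses and a line at the median. Dotted lines mark 2-fold. The medians lie between -0.075 and 0.92, and each list has genes on both sides of 0.

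Several of the genes occurred in like shares of P6- cells with and without Foxp3. At least 10 reads of Foxp3 (chromosome X, 7573644 to 7595245) were present in 19 P6- cells. The exons of Foxp3 overlap those of Ppp1r3f, Gm36995, Flicr and Ccdc22, whose reads cannot be separated there. At least 3 of the genes were present in 3 of these cells (15.8%, 3.38 to 39.6%) and in 18 of the other 110 (16.4%, 9.996 to 24.6%). By pooled level 4 genes were 2-fold higher with Foxp3 (Isg15, Bst2, Usp18, Zbp1) and 2 lower (Ifit1, Irf7), where 24.4% of 8335 genes were 2-fold higher and 37.9% lower. The median log2 ratio was 0.35, and -0.55 without the cell highest in these genes of each class. Without each gene's own highest cell, 2 genes were 2-fold higher and 4 lower, Zbp1 went from 2.08 to -0.25 and Bst2 from 1.09 to 0.19. Either step took 1 of 19 cells with Foxp3 but 1 of 110 without, and was not computed over all genes. Isg15 was detected at 10 reads in 3 of the 19 cells with Foxp3 and in 6 of the 110 without.

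Within the P6+ cells, those with reads of Trbv13-2 (chromosome 6, 41121396 to 41121832), the V segment that the study lists for the main clone's β chain, were set beside the rest. There were 16 cells with 10 or more such reads and 16 without. At least 3 of the genes were found in 9 cells with it (56.2%, 29.9 to 80.2%) and in 7 without (43.8%, 19.8 to 70.1%), with overlapping intervals. Zbp1 was present in 9 against 2 cells and Bst2 in 9 against 5, while Irf7 was present in 3 against 7, and Isg20 in 4 of each. The levels were 220.2 against 38.88 cpm for Zbp1, 268 against 123.2 cpm for Bst2 and 158 against 534 cpm for Irf7. The cells with 10 reads of Isg15, Ifit1 or Ifit3 all lay in the class without Trbv13-2. By pooled level 2 genes were 2-fold higher with Trbv13-2 and 5 lower, where 34.9% of 7660 genes were higher and 33.4% lower. The median log2 ratio was -0.62 over the 10 genes and -1.22 without Usp18, which had at most 1 read in either class and has no ratio, with Ifit3 at its bound. Without the cell highest in these genes of each class it was -0.074, and without each gene's own highest cell it was -0.14, with 2 genes higher and 3 lower. These steps were not computed over all genes. P6+ cell 23 held most of the P6+ reads of Isg15, Ifit1 and Ifit3, as given above.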

How the data were processed

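Smart-Seq2 libraries of 176 single CD4 T cells, 32 P6+ and 144 P6-, were analysed. Per the study's methods and the submitters' processing notes, the authors checked reads with FastQC 0.11.7, mapped them to GRCm38 with STAR 2.6.0a, sorted them with SAMtools 0.1.19 and replaced Ensembl identifiers by gene names. The deposited counts are raw reads per gene, neither normalized nor imputed. A second deposited table gives the tetramer sign. Neither holds the authors' comparisons.

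Rows of the same name were averaged (53647 rows to 53546 names). Cells with 500000 reads, 2000 genes and under 10% mitochondrial reads were kept, which left all 32 P6+ and 129 P6- cells. The study's limit on mapping rate was not used here. Within each group counts were summed and scaled to 1000000 reads (cpm), and log2 ratios took a pseudocount of 1. With 1 sample per group no test was made, and "called" means 2-fold at 10 cpm or more in the higher group. Each well received a sorted single cell, and no doublet caller was run. Detection required 10 reads, and 3 of the genes counted as several. The named genes were the 10 members, up to 5 per list with the highest cpm, the 10 most like the set, Foxp3 and Trbv13-2. Further genes (Tlr7, Tlr9, Phrf1, Ifit3b, Ifit1bl1, Tyk2 and the overlapping genes) were named after their values were seen where they fell outside that rule. The values of 1 gene under this rule are not reported. The members and lists were chosen with earlier results of these data known. Alternatives changed cells, plate, pooling, pseudocount, TMM scaling, depth and detection. Genes were placed by GENCODE annotation of GRCm38, and promoters came from RefSeq. Python 3.11.15, numpy 2.4.6, pandas 2.3.3, scipy 1.17.1, R 4.3.3 and edgeR 4.0.16 (TMM factors only) were used.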

Additional observations from a re-analysis of the deposited data

Results flagged for a closer look

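Bst2 stood out in data that the comparisons did not use. The 15 P6- cells that failed the quality limits held 3356 cpm of Bst2 (3322 to 3390, counting error only), against 43.8 cpm in the P6- cells that passed. The signal came from few cells, as 3 of the 15 had 10 or more reads, and P6- cell 67 held 63.9% and P6- cell 98 held 35.8% of the reads. P6- cell 67 had 30.3% mitochondrial reads, 10545 cpm of Bst2 and 0 of the CD4 T cell markers at 10 reads. P6- cell 98 had 12.5% mitochondrial reads, 12115 cpm of Bst2 and 2 of those markers. Both had 0 markers of the plasmacytoid dendritic cell, B and plasma cell and myeloid lists at 10 reads, and Bst2 was the sole member of the set there. The other genes of the set were not above the passing cells in these 15.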

How the results depend on the processing

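The member values were recomputed under 9 alternatives, of which leaving out each gene's highest cell was chosen after seeing the data, as were the calls by share of cells and the median without Usp18. Of 90 values, 86 had the sign given above, and 7 of the 10 genes kept it in all 9. The log2 ratio of Ifit1 turned to -3.59 without the cell highest in the genes of each group and to -0.13 without its own highest cells, since 1 cell held nearly all its reads. Bst2 turned to -0.11 with all sorted cells, through the failing cells with high Bst2. Rtp4 turned to 6.09 against the same plate, where it had no read. The median over the genes, 0.82, was 0.078 with all sorted cells, 1.35 with the same plate, 0.97 with the mean of cells, 0.60 with a pseudocount of 10, 0.97 after thinning, -0.47 without the highest cell of each group and 0.13 without each gene's highest cell. The 5 genes 2-fold higher became 3 by share of cells. The 1 gene 2-fold lower became 3 with the same plate, 2 with the mean of cells, a pseudocount of 0.1, TMM factors or thinning, 4 without the highest cell of each group or of each gene (in the latter Isg15 was under 10 cpm), and 0 by share of cells. By share of cells Usp18 and Ifit1 were not compared, as both were under the minimum of 10% of cells in either group. Over all genes, 3906 were 2-fold higher with the same plate against 2124, and 4158 were 2-fold lower with no minimum cpm against 2612. The share of P6+ and P6- cells with several of the genes was 78.1 and 54.3% at 1 read, 68.8 and 40.3% for 2 genes, and 12.5 and 3.88% for 5 genes, and 27.3% of the P6- cells of the same plate. The Foxp3 median of 0.35 was 0.58 with the mean of cells and -0.55 without the highest cell of each class. The Trbv13-2 median of -0.62 was -0.074 without those cells and -1.22 without Usp18. A group is 1 sample, so counting intervals understate the error of every value.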
